A study of Mus musculus with 2 samples.

Results

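The genes described here encode the C/EBP transcription factors, the myeloid regulators Spi1 (PU.1, written Sfpi1 on the array), Gfi1 and Irf8, and the colony-stimulating factor receptors Csf3r and Csf1r. Members were found by gene name, by a rule that uses no measured value: every array sequence whose annotation carried 1 of 10 listed names was taken. This gave 14 sequences of 8 genes, out of 44170 sequences and 24171 named genes on the array. Cebpb and Cebpd were also listed and were not analysed here.

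The samples were LT-HSC (long-term haematopoietic stem cells, which sit in the marrow and can restore the blood for life) of WASH knockout mice and of wild type control mice, all of strain C57/BL6 and kept in specific-pathogen-free conditions. WASH is an activator of actin assembly on endosomes. Cells were purified by flow cytometry from femoral marrow, and total RNA was labelled with Cy3 and hybridised to a NimbleGen expression array. There was 1 knockout array and 1 control array. The allele, any Cre driver, the age of the mice and the number of mice behind each sample are not given in the sources used here. With 1 array a genotype there is no spread between animals and no test, so each difference below compares the knockout array with the control array and not the genotypes.

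Values are intensities, the brightness of a sequence summarised from its 3 probes, on a linear scale. The difference is log2 of the knockout value minus log2 of the control value. A size of 2-fold (a log2 difference of 1 in either direction) stands in for a test. Probes of random sequence gave a background of 75.7 on the knockout array and 71.3 on the control array, and 29.9% of the sequences on the knockout array and 28.1% on the control array were at or below it. Median intensities were 137 on both arrays. Washc1, the gene of the WASH protein, was at 107 on the knockout array and 119 on the control array, and its place relative to the deletion is not known here, so it does not check the labels. The number of arrays, and for dim sequences the closeness to background, limits the precision.

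As background, granulocytes and monocytes form from stem cells under a small set of transcription factors. C/EBP proteins bind DNA as dimers through a basic leucine zipper. PU.1 opens the myeloid programme and is antagonised by Gfi1, a repressor that favours granulocytes, while Irf8 works with PU.1 on the monocyte and dendritic cell side. These factors in turn drive the receptors for G-CSF (Csf3r) and M-CSF (Csf1r), through which the cells survive and mature.

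Upstream sequences of some member genes are shown because some of these factors can bind the genes of others. The search covered RefSeq promoters (GRCm38.p6) of 5 measured members, Cebpa, Cebpg, Gfi1, Irf8 and Csf3r, with 7 gene starts. The promoters of Cebpe, Spi1 and Csf1r were not searched, so whether they hold these letters is not known here. The 250 bases before each start were searched on both strands. The letters searched were TTGCNNAA for C/EBP and the core GAGGAA for PU.1, and matches to one did not overlap matches to the other. There were 2 matches in the promoters searched, each in a different promoter. Csf3r, on the plus strand at chr4:126024409-126024658, held the PU.1 core 86 bases before its start, and Gfi1, on the minus strand at chr5:107725806-107726055, held the C/EBP letters as TTGCTGAA 143 bases before the first of its 2 starts. Cebpa, on the plus strand at chr7:35119043-35119292, held neither. Each is printed 5′ to 3′ with matches in capitals.
Csf3r: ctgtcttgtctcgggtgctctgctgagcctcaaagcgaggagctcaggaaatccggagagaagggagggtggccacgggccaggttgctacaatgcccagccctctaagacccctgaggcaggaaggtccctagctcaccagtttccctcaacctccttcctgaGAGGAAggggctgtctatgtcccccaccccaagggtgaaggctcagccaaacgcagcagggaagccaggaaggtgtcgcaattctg
Gfi1: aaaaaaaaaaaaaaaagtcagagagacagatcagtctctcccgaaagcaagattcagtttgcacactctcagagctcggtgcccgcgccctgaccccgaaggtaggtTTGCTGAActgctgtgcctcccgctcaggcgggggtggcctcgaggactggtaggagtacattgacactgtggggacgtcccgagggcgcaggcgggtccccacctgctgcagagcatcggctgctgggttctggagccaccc
Cebpa: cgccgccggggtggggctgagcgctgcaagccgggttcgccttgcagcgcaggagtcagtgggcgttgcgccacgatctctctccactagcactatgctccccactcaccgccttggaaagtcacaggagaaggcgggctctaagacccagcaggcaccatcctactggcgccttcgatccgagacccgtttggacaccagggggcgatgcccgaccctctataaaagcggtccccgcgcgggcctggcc
Over all 32851 promoters of the table the C/EBP letters were found in 9.56% and the PU.1 core in 23.3%. A match is a description of the letters and not a bound site.

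Across the members, Spi1 and 1 of 3 Csf1r sequences were higher by 2-fold or more on the knockout array, and 1 of 2 Cebpa sequences and 1 of 2 Csf3r sequences were lower by 2-fold or more. The Csf3r sequence lay below the random-probe level on the knockout array, and with that value set to the random-probe level only the Cebpa sequence was lower by 2-fold or more. The 10 other sequences differed by less than 2-fold. On the whole array, 5.98% of 44170 sequences were higher by 2-fold or more and 6.77% lower by 2-fold or more, so that the members' 2 of 14 in each direction rest on single sequences in a comparison where such sizes are common. Of the 14 sequences, 3 were higher and 11 lower on the knockout array, beside 49.3% of all sequences that were lower. Several of the 11 are sequences of the same gene, and some differed by little or lay near background, so they are not separate results. Counted by the brightest sequence of each gene, 3 of 8 members were higher and 5 lower, beside 12472 higher and 11683 lower of all 24171 genes. Taking the brightest sequence of each gene, 2 of 8 genes were higher by 2-fold or more, against 5.94% of all genes, and 1, Csf3r, was lower by 2-fold or more, against 6.42% of all genes, or 0 with its knockout value set to the random-probe level. The median difference over the 8 genes was -0.10, beside 0.02 for all genes.

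**Figure D1:**
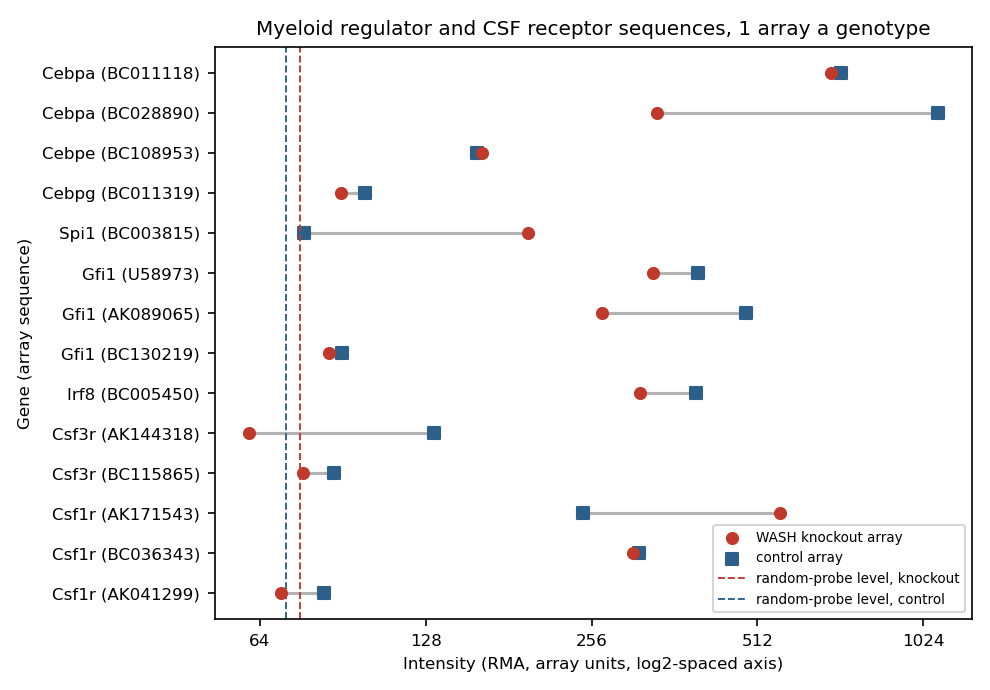
Intensity of each of the 14 member sequences (log2-spaced axis) on the WASH knockout array (red circles) and the control array (blue squares), 1 array each, with the level of the probes of random sequence of each array as dashed lines. The widest separations are those of Cebpa BC028890 (336.5 on the knockout array, 1088 on the control array) and Spi1 (196 on the knockout array, 77.0 on the control array), and of the 4 Csf3r values only that of AK144318 on the control array (132) stands clear of the dashed lines.

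Markers of other cells differed between the arrays as well, and their part in the members' differences was not tested. In bulk RNA, fewer cells of a type and less RNA per cell cannot be told apart. Of 12 LT-HSC markers measured, Procr, Tek and Fgd5 were at or below the random-probe level on both arrays. Kit was at 489 on the knockout array and 398 on the control array by the brightest of its 4 sequences, whose differences ranged from -0.71 to 0.30. By the brightest sequence of each gene, 5 of the 12 markers were higher and 7 lower. The median difference was -0.18 by those sequences and 0.02 over all 30 sequences of the list. All 3 sequences of Meis1 (0.42 to 1.13) and all 3 of Cd34 (0.25 to 0.85) were higher. Mecom, a zinc finger regulator of stem cells, was at -1.10 as the 1 gene past 2-fold. The 6 Mecom sequences ranged from -1.65 to 0.49, and with the mean over them the list held 0 genes past 2-fold. The 19 neutrophil genes summed to 58158 on the knockout array and 148051 on the control array. Of these, 7 were lower by 2-fold or more and none higher by 2-fold or more, with a median of -0.94. The 13 measured erythroid markers summed to 84136 on the knockout array and 16227 on the control array, and 9 were higher by 2-fold or more and none lower, led by the globin gene Hbb-b1 at 43218 on the knockout array and 5699 on the control array. The 16 monocyte and macrophage genes summed to 15924 on the knockout array and 19404 on the control array, with a median of 0.24. By their brightest sequences 11 were higher and 5 lower. Among the lower were 2 bright lysozyme genes, Lyz1 (959 on the knockout array, 3078 on the control array) and Lyz2 (3202 on the knockout array, 6024 on the control array). No marker was at 0 on either array, but no sequence could show absence in that way. The lowest intensity of any sequence was 15.2 on the knockout array and 15.8 on the control array.

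Cebpa encodes C/EBP-alpha, which is needed to form granulocyte and monocyte progenitors. The intronless gene lies on chromosome 7 (MM9) and was read by 2 sequences that begin at the same base and share 2179 bases. Sequence BC011118 (35904321 to 35906951) was at 697 on the knockout array and 725 on the control array, a log2 difference of -0.06. Sequence BC028890 (35904321 to 35906499), which ends 452 bases sooner, was at 336.5 on the knockout array and 1088 on the control array, a difference of -1.69 or 3.23-fold lower. Both sequences were well above the random-probe level on both arrays, at 9.21 and 4.45 times it on the knockout array and 10.2 and 15.3 times it on the control array. The arrays therefore gave a value near equality and a 3.23-fold lower one for transcripts that share most of their length. Where the probes of each sequence lie was not analysed here.

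Among the 5874 genes with exactly 2 sequences, the gap between the differences of the pair had a median of 0.58. The gap of 1.64 for Cebpa was reached by 433 of these genes (7.37%). Among the 1703 such genes whose sequences both had a mean log2 value above the array median, the median gap was 0.49 and 100 genes (5.87%) had a gap as large. A mean over both sequences put Cebpa at -0.87.

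**Figure D2:**
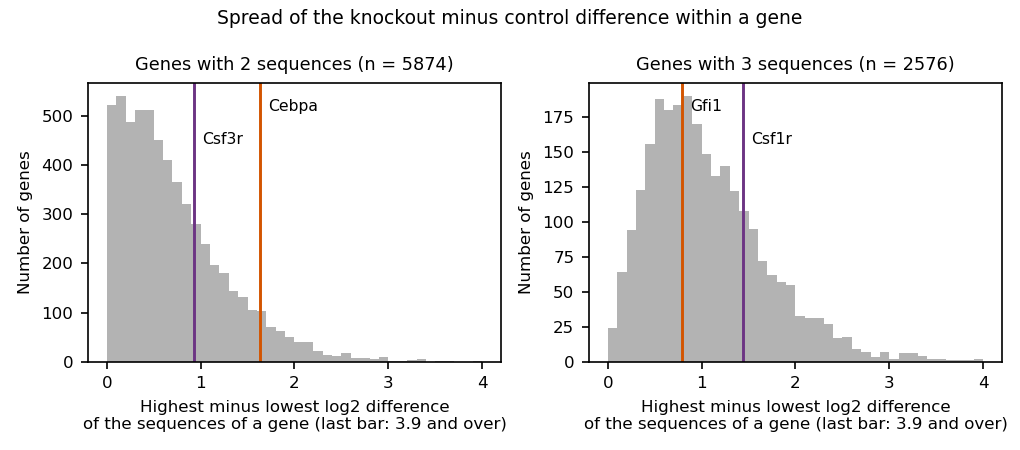
Number of genes by the gap between the highest and lowest log2 difference (knockout minus control) of their sequences, for genes with 2 sequences (left) and 3 sequences (right). Lines mark Csf3r at 0.93 and Cebpa at 1.64 on the left, and Gfi1 at 0.79 and Csf1r at 1.44 on the right.

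Cebpe and Cebpg differed little. Cebpe encodes C/EBP-epsilon, which drives the late, secondary granule genes of neutrophils, and its single sequence BC108953 (chromosome 14, 55329208 to 55330951) was at 162 on the knockout array and 158 on the control array, a difference of 0.03. It stood at 2.14 times the random-probe level on the knockout array and 2.22 times it on the control array. Cebpg encodes C/EBP-gamma, a short family member without a strong activation domain of its own, and its sequence BC011319 (chromosome 7, 35831809 to 35841522) was at 89.9 on the knockout array and 99.2 on the control array, a difference of -0.14. On the genome its span lies 62799 bases from that of Cebpa. At 1.19 times the random-probe level on the knockout array and 1.39 times it on the control array, Cebpg was close to background.

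The genes listed as partners and modulators of C/EBP proteins held no gene at 2-fold or more in either direction among 12 measured, with a median of -0.05. The most different by size was the stress factor Atf3, at 464 on the knockout array and 264 on the control array (0.82), while its other sequence differed by -2.18. Ddit3 (CHOP), a C/EBP family protein that forms dimers with the others, was at 132 on the knockout array and 144 on the control array. Trib1, an adaptor that brings C/EBP-alpha to degradation, was at 359 on the knockout array and 416 on the control array.

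Spi1 had the most positive difference of the members. Its 1 sequence, BC003815 (chromosome 2, 90937035 to 90955914), was at 196 on the knockout array and 77.0 on the control array, a difference of 1.35 or 2.55-fold higher. The control value was 1.08 times the random-probe level of that array and the knockout value 2.60 times its own, so the fold rests on a control value near background. With an offset of 50 added before the log the difference was 0.96, under 2-fold, and the mean of both arrays lay below the median of all sequences. No other Spi1 sequence was on the array to set beside it. Among 9 measured relatives of PU.1 in the ETS family, 1 was higher by 2-fold or more and none lower by that size, with a median of -0.12. That gene, the repressor Elk3, was at 2284 on the knockout array and 1060.3 on the control array (1.11), and its other sequences differed by 0.02 and -0.39.

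Gfi1 was read by 3 sequences on chromosome 5, all lower on the knockout array and none by 2-fold. AK089065, which spans most of the gene (108145673 to 108154825), was at 267 on the knockout array and 489 on the control array (-0.87). U58973 (108152743 to 108155042), which lies at the end where the gene starts, was at 331 on the knockout array and 399.9 on the control array (-0.27). BC130219 (108145673 to 108150352), which shares no base of its span with U58973, was at 85.5 on the knockout array and 90.3 on the control array (-0.08) and stood at only 1.13 and 1.27 times the random-probe levels of those arrays. The gap of 0.79 between these sequences was below the median gap of 0.95 of the 2576 genes with 3 sequences. The paralogue Gfi1b, which acts in red cell and platelet precursors, was at 84.6 on the knockout array and 73.5 on the control array.

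Irf8, which favours monocytes and dendritic cells over granulocytes, was read by BC005450 (chromosome 8, 123260275 to 123280592). It was at 314 on the knockout array and 396 on the control array, a difference of -0.33, and stood at 4.15 times the random-probe level on the knockout array and 5.55 times it on the control array. Among the 8 other IRF genes measured, 1 was higher by 2-fold or more and none lower by that size, with a median of -0.10. That gene, Irf3, a sensor-activated inducer of interferon genes, was at 494 on the knockout array and 170.2 on the control array (1.54). Its other sequence was higher too, at 128 on the knockout array and 51.6 on the control array, the last below the random-probe level.

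Csf3r encodes the receptor for G-CSF, the main growth factor of neutrophils, and was dim on both arrays. Its sequence AK144318 (chromosome 4, 125701979 to 125721683) was at 61.1 on the knockout array and 132 on the control array, a difference of -1.12. Because the knockout value lay below the random-probe level of 75.7, the difference is bounded as at least 1.75-fold lower, under the 2-fold size. The other sequence, BC115865 (125702025 to 125721366), lies inside the first and was at 76.6 on the knockout array and 87.3 on the control array (-0.19), or 1.01 and 1.22 times the random-probe levels. Neither sequence measured Csf3r well above background on the knockout array.

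Csf1r, the receptor tyrosine kinase for M-CSF and IL-34, was read by 3 sequences on chromosome 18 that overlap each other and did not agree. AK171543 (61265434 to 61280545) was at 563 on the knockout array and 248 on the control array, a difference of 1.19 or 2.27-fold higher. BC036343 (61265534 to 61290788) was at 305 on the knockout array and 312 on the control array, a difference of -0.04, although it shares 15012 bases of span with the first. AK041299 (61265434 to 61286740) was at 70.0 on the knockout array, below the random-probe level, and 83.6 on the control array. A gap as wide as the 1.44 between these sequences was found in 608 of the 2576 genes with 3 sequences (23.6%). The 2-fold difference of Csf1r thus belongs to 1 of its 3 sequences, and the mean over the 3 was 0.30.

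**Figure D3:**
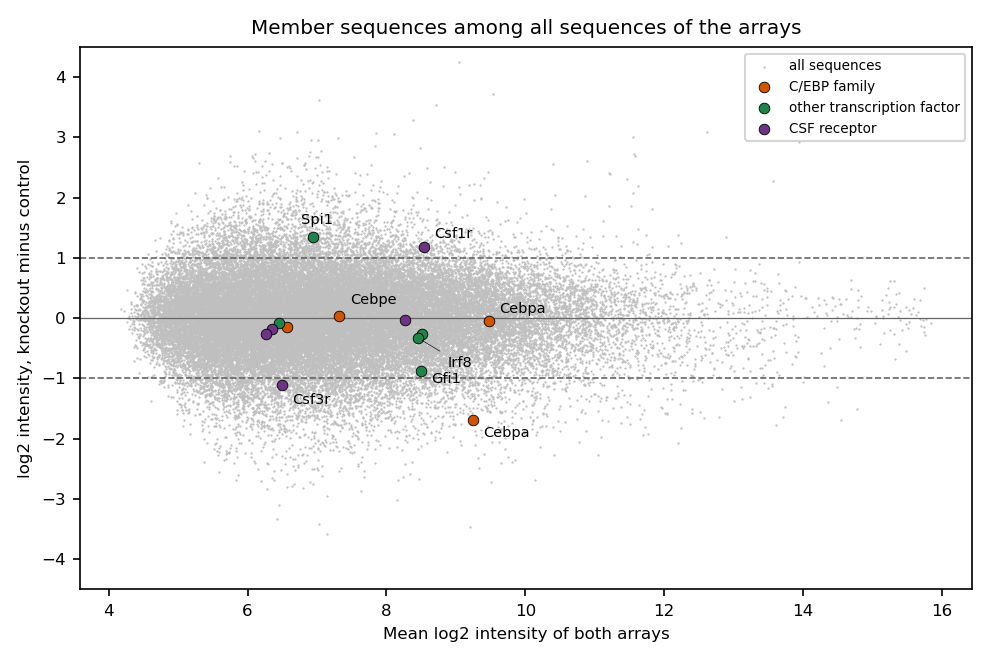
The log2 difference (knockout minus control) against the mean log2 intensity of both arrays for all 44170 sequences (grey) and the 14 member sequences (coloured by role). Dashed lines mark 2-fold, with Spi1 and 1 Csf1r sequence above the upper line and 1 Cebpa and 1 Csf3r sequence below the lower line.

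The ligands and partner receptors of the CSF family held 2 genes higher by 2-fold or more and none lower by that size among 9 measured, with a median of 0.24. Csf1, which encodes M-CSF, was at 1206 on the knockout array and 582 on the control array (1.05), and its 4 sequences ranged from -0.02 to 1.05. Csf2rb2, a beta chain of the interleukin 3 receptor, was at 527 on the knockout array and 241 on the control array (1.13). Its close paralogue Csf2rb, the common beta chain, was at 1556 on the knockout array and 2020 on the control array (-0.38), and how far probes tell these copies apart was not analysed here. Csf3, which encodes G-CSF, was at 634 on the knockout array and 823 on the control array, and Csf2, which encodes GM-CSF, at 422 on the knockout array and 356 on the control array. Il34 was at 156 on the knockout array and 157 on the control array.

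Downstream of the receptors, 5 of 16 signalling genes were lower by 2-fold or more by their brightest sequence and none was higher by that size, while the median of the list was 0.18. The phosphatase Ptpn11 (SHP2) was at 136 on the knockout array and 353 on the control array (-1.38), and its other sequences differed by -0.54 and -0.06. The adaptor Grb2 was at 410.4 on the knockout array and 992 on the control array (-1.27), while of its other sequences one differed by 0.18 and one was below the random-probe level on both arrays. Also among the 5, and named after their values were seen, were the kinase Lyn at 985 on the knockout array and 2225 on the control array (-1.18; other sequences -0.82 and, below the random-probe level on the knockout array, -0.04) and the phosphatase Ptpn6 (SHP1) at 491 on the knockout array and 1092 on the control array (-1.15; the other sequence was below the random-probe level on both arrays). With the mean over the sequences of each gene, 1 of the 16 was 2-fold lower. The summed neutrophil signal was lower on the same array, and its part in these values was not tested. The kinase Jak2, which sits on several of these receptors, was at 131 on the knockout array and 110.4 on the control array, and the factor Stat3 was at 4478 on the knockout array and 2604 on the control array (0.78), while its other sequence differed by -0.57.

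Of 18 other myeloid regulators measured, 2 were higher by 2-fold or more and 1 lower by 2-fold or more by their brightest sequence, with a median of 0.01. Among all 39 sequences of these genes, 2 were higher and 5 lower by that size. With the mean over the sequences of each gene, 0 were higher and 1 lower by that size. Maf, a factor of macrophages, was at 692 on the knockout array and 328 on the control array (1.08), while its other sequence was at 51.2 on the knockout array, below the random-probe level, and 84.9 on the control array. Nab2, a corepressor of EGR factors, was at 250.03 on the knockout array and 123 on the control array (1.02), with its other sequence at 0.52. The nuclear receptor Nr4a1 was at 106 on the knockout array and 229 on the control array (-1.11).

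Marker genes of neutrophils and monocytes, some of them known targets of C/EBP proteins or PU.1, were set beside the factors themselves. Cybb, the membrane subunit of the phagocyte oxidase, was read by 3 sequences that agreed: 418, 257 and 106 on the knockout array, against 1669, 888 and 316 on the control array, with differences of -2.00, -1.79 and -1.58. Both sequences of Fcnb, a ficolin of neutrophil granules, were lower, by -1.77 and -1.46. The sequences of Itgam (0.77, -0.27 and -1.73) and of Retnlg (0.33 and -1.49) did not agree, and both genes were higher by their brightest sequence. Chil3, a chitinase-like protein of myeloid cells, was at 597 on the knockout array and 2021 on the control array (-1.76). In the monocyte list, the Fc receptor gene Fcgr1 was at 295 on the knockout array and 119 on the control array (1.31), the complement gene C1qa at 311 on the knockout array and 138 on the control array (1.17), and the lysozyme gene Lyz1 at 959 on the knockout array and 3078 on the control array (-1.68). The other C1q genes of that list did not share the size of C1qa: C1qb differed by -0.58 and C1qc by 0.24. By the brightest sequence of each gene, the neutrophil list had 2 genes higher and 17 lower, with a median of -0.94. The members had 3 genes higher and 5 lower, with a median of -0.10. By sequence, those of Cebpa were at -1.69 and -0.06 and those of Csf3r at -1.12 (below the random-probe level on the knockout array) and -0.19. Those of Gfi1 lay between -0.87 and -0.08 and those of Csf1r between -0.26 and 1.19. Irf8 was at -0.33, Cebpg at -0.14, Cebpe at 0.03 and Spi1 at 1.35.

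**Figure D4:**
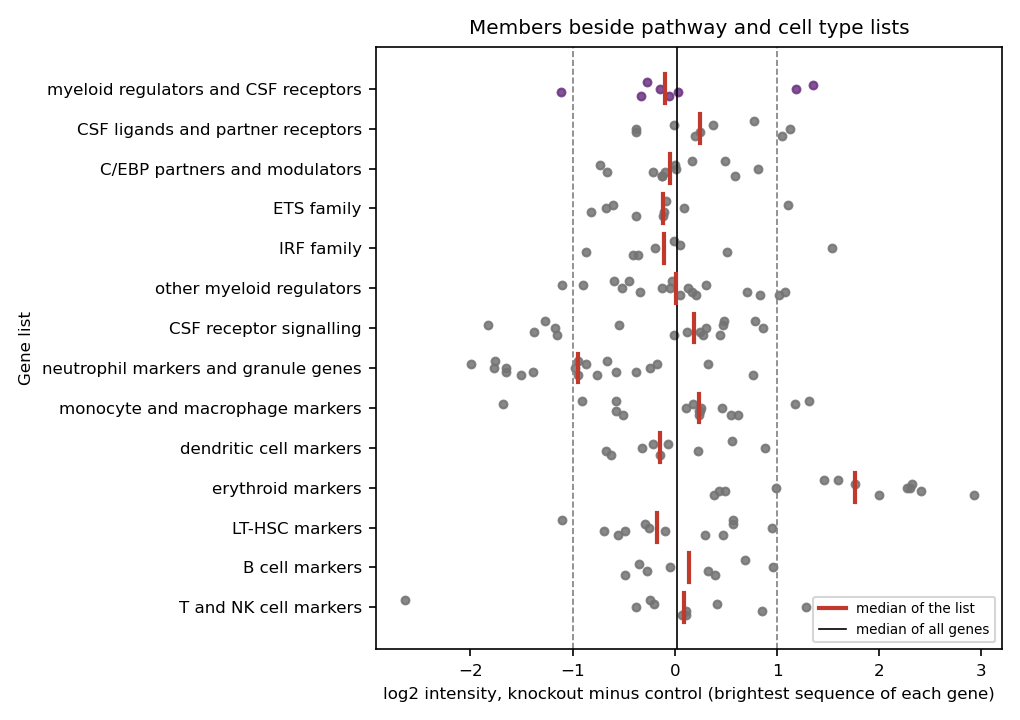
The log2 difference (knockout minus control) of each gene by its brightest sequence, for the members (purple) and for 13 pathway and cell type lists (grey), with the median of each list in red, the median of all genes as a black line and 2-fold as dashed lines. The members' median of -0.10 lies near that of all genes, while the neutrophil list has a median of -0.94 and the erythroid list one of 1.76.

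In the other cell type lists, the dendritic list of 9 genes had no gene at 2-fold and a median of -0.15, with Siglech at 0.88. In that list 6 genes were lower, and the 4 Siglech sequences ranged from -0.54 to 0.88. The B cell list of 8 genes had no gene at 2-fold and a median of 0.14, with Ms4a1 at 0.96. The other Ms4a1 sequence differed by -0.15 and was below the random-probe level on both arrays. The T and NK cell list of 10 genes had 1 higher by 2-fold or more, Klrb1c (1.28 by its brightest sequence, -1.24 and 0.34 by its others), and 1 lower by 2-fold or more, Gzmb (-2.64), with a median of 0.09. Among all 18 sequences of that list, 3 were higher and 2 lower by that size. Both Il7r sequences were higher, by 0.85 for the brighter and by 2.43 for the other, whose control value was below the random-probe level. In the erythroid list, Hba-a1 differed by 2.41 and Car2 by 2.32; Hba-a1 has a near-identical copy, so its value may hold signal of both.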

How the data were processed

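Total RNA of sorted LT-HSC was measured on 1 NimbleGen array for each genotype. The authors deposited 1 linear intensity per sequence, made with RMA (background correction, normalization between arrays and probe summary) per the submitters' processing notes; no RMA version is given in those notes. Normalization between arrays would hide a change shared by most genes. Per the file headers, coordinates are MM9, and 44155 of 44170 sequences rest on 3 probes. The authors' series table held 34219 sequences and differed from the array files by at most 0.0412 units.

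Members were matched by the gene name in the files; other names were updated through RefSeq gene identifiers, which matched 39057 sequences, and 2284 sequences had no symbol. Intensities were log2 transformed with pandas 2.3.3 and numpy 2.4.6, without further scaling or filter. A gene was represented by its sequence with the highest mean log2 value. Arrays were grouped by the genotype label, and no test was possible with 1 array a genotype. A value at or below the 5000 probes of random sequence of its array on 1 array gives a bound. Only the log2 difference and the 2-fold size were tried on simulated data. The simulated noise was smaller than the SD of 0.64 (log2) between sequences of 1 gene, so it does not show how the calls behave in these data. Genes outside the members were named by a rule: per list, up to 3 with the most different values at 2-fold or more and a mean above the median (percentile 50) of all sequences, or 1 where none reached 2-fold. A gene of the signalling list that met this rule is not reported here. Other list genes are examples chosen after their values were seen. Members and lists were chosen with earlier results of these data known. The closing section gives the alternatives tried.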

Additional observations from a re-analysis of the deposited data

How the results depend on the processing

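No paired analysis was possible because the design holds a single array of either genotype. The recomputed differences of member genes and sequences numbered 171, and many of them could not move. The filters only drop sequences, the series table repeats the array values, and a gene with 1 sequence leaves no choice of sequence. Of the 171, 166 moved by less than 0.64, the SD (log2) between sequences of 1 gene. That size is wide, and Spi1 stayed within it when the offset took it from 1.35 to 0.96. The exceptions all came from the choice of sequence: with the mean over sequences Cebpa was at -0.87 and Csf1r at 0.30, and with the dimmest sequence Cebpa was at -1.69, Csf3r at -0.19 and Csf1r at -0.26, a change of sign that rests on a knockout value below the random-probe level. Against 2 member sequences higher and 2 lower on the knockout array, an offset of 50 before the log left 1 and 1, a mean above the median or above percentile 75 left 1 and 1, without Spi1 (0.96 with the offset, below both filters) and Csf3r, and a size of 3-fold left 0 and 1. Flooring values at the random-probe level, added after seeing the data, left 1 lower. Against 2 member genes higher and 1 lower, the offset, the mean over sequences and both filters left 1 and 0, the dimmest sequence left 1 higher, 3-fold left 0 and 0, and the floor left 0 lower. Against 2642 sequences higher and 2989 lower on the whole array, the counts were 939 and 1273 with the offset, 1117 and 1473 above the median, 427 and 665 above percentile 75, 7622 and 7761 when 1.5-fold was used, 545 and 642 when 3-fold was used, and 1659 and 1928 with the floor; the series table, with fewer sequences, had 1752 higher. Stricter sizes and filters count fewer by construction. Centring, quantile normalization and loess (span 0.3) changed none of these counts by over 1.5 times. Of 312 recomputed counts of the 13 lists, 258 stayed within 1.5 times. Closeness to background limits Cebpg, Csf3r, Csf1r AK041299, Gfi1 BC130219 and the control value of Spi1.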
